A study of Mus musculus with 5 samples.

Results

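The 10 genes described here encode the core and accessory subunits of Polycomb repressive complex 2 (PRC2): Ezh1, Ezh2, Eed, Suz12, Rbbp4, Rbbp7, Jarid2, Mtf2, Phf1 and Phf19. They are listed by name, with no measured value in the rule, and all 10 were found by gene identifier among the 52550 genes of a 3′ RNA-seq (Quant-seq) count table. The libraries were made from KL cells, Lin-cKit+Sca1- bone marrow cells that hold the committed myeloid progenitors, sorted 20 weeks after tamoxifen. The mutant group, BcorΔE9-10 (n = 3), was labelled scl-Cre-ERT +; Bcorfl/y and the control group, BcorWT (n = 2), scl-Cre-ERT +; Bcorwt/y, so that both groups carried the tamoxifen-inducible Cre and had a single, male copy of Bcor. Per the labels, animals of both groups had received 1 mg tamoxifen on each of 5 days by intraperitoneal injection at 3 to 6 months of age. The Cre transgene acts in haematopoietic stem cells, and the recombined allele lacks exons 9 and 10 and encodes a truncated protein. The text of the study describes controls more broadly, as littermates given tamoxifen that had either transgene alone, and it states that recombination was measured in sorted cells, which is not analysed here.

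PRC2 is the enzyme complex that methylates lysine 27 of histone H3, a mark of silenced developmental genes. Ezh2 or its paralogue Ezh1 carries the catalytic SET domain, Eed binds the methylated histone tail and stimulates the enzyme, Suz12 is the scaffold, and Rbbp4 or Rbbp7 binds histones. The core joins either a Polycomb-like protein (Phf1, Mtf2 or Phf19; the form called PRC2.1) or Jarid2 with Aebp2 (PRC2.2), and these accessory proteins guide it to CpG-rich DNA or to histone H2A that Polycomb repressive complex 1 (PRC1) has ubiquitylated. Bcor is a subunit of a variant PRC1 that places this ubiquitin mark, and PRC2 is required for normal blood stem cell and progenitor function.

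Ezh2 is known as a target of E2F factors, the transcription factors that switch on S phase genes, so the promoter windows of all members were searched for E2F letters (TTTCGCGC, TTTGGCGC, TTTCCCGC or TTTGCCGC, on either strand). RefSeq windows (GRCm38.p6, from 250 bases before to 50 bases after a gene's start) were found for all 10 members, 12 windows in all, and 3 members held a match, beside 744 of the 32851 windows of all genes (2.26%). The matches lay in Ezh2 (4 bases past the start), Suz12 (position -219) and Phf19 (position -208). The parts of these windows that hold them are given below 5′ to 3′ on the strand of the gene, with the E2F letters in capitals, because these genes are the catalytic subunit, the scaffold and the member with the greatest difference between the groups. Ezh2 is read from chr6:47595011-47595120 (minus strand), Suz12 from chr11:79992856-79992955 (plus strand) and Phf19 from chr2:34914127-34914226 (minus strand, with the motif in reverse complement).
Ezh2: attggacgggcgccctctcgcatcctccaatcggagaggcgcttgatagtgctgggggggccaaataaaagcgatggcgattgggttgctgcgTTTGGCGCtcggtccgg
Suz12: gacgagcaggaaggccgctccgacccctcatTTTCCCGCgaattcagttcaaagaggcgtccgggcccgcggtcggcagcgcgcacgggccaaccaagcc
Phf19: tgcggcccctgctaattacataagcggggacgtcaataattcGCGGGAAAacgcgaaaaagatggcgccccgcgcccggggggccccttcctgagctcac
A match is a description of these letters and not a measured binding site. The member windows held from 2 to 41 CpG pairs each, beside a median of 7 in all windows. Every pattern searched holds a CpG pair, and the share with a match was not taken over windows of like CpG content. The 2.26% is also a share of windows and not of genes, so it does not show whether matches are more common in these members.

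The 5 libraries held between 5998924 and 8303999 counts. Counts were converted to CPM (read counts brought to a common library total with TMM factors), and limma was used to compare the genotypes over the 11766 genes with enough counts, of which 1189 passed an adjusted p of 0.05. P-values measure the spread between these libraries only. In the sorted population, summed neutrophil markers were lower in BcorΔE9-10 libraries (147900 to 171900 CPM) than in BcorWT libraries (214000 and 226000 CPM; 5 of 10 markers called lower), as were summed basophil, mast cell and eosinophil markers (393 to 567 against 981 and 1272 CPM; 5 of 7 tested called lower) and summed monocyte and dendritic markers (1031 to 1136 against 1356 and 1361 CPM; 1 of 6 tested called lower). Summed erythroid markers were higher in BcorΔE9-10 libraries (31.8, 73.4 and 128.9 against 12.2 and 31.6 CPM; 1 of 4 tested called higher), by a narrow margin in library 1, and summed stem cell markers were low in all libraries (8.98 to 13.9 against 7.81 and 8.74 CPM; 0 of 1 tested called), while summed myeloid progenitor markers overlapped (7051 to 8356 against 7630 and 8431 CPM). Kit, the receptor used in the sort, was at 53.4, 50.1 and 49.4 CPM in BcorΔE9-10 and 18.2 and 19.6 CPM in BcorWT libraries (log2 fold change 1.43, SE 0.173, limma adjusted p = 9.82e-05), and none of the markers listed for 8 cell types was at 0 in every library. The marker differences between the groups move with genotype, and their part in any value below was not tested. Summed neutrophil markers were also far above summed myeloid progenitor markers in every library. How much of each level below came from RNA of maturing neutrophils was not tested. In such bulk samples, fewer cells of a type and less RNA per cell cannot be told apart. For Bcor itself, the mutant libraries gave 196, 168 and 185 counts and the controls 83 and 109, at a transcript end outside the deleted exons, so these counts do not check the labels. The log2 fold change of Bcor was 0.78 (SE 0.218, limma adjusted p = 0.0313). The call was lost with the GC correction (0.39, limma adjusted p = 0.280), also with the block, without any 1 BcorΔE9-10 library and without BcorWT library 1 (0.54).

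None of the 10 PRC2 genes passed limma's adjusted threshold, which 10.1% of all tested genes passed. All 10 were expressed well enough to be tested. The lowest limma adjusted p among them was 0.125 (Phf19), and neither edgeR's quasi-likelihood test (lowest adjusted p = 0.0922, Phf19) nor DESeq2 (lowest adjusted p = 0.147, Phf19) called a member, where they called 11.2% and 10.9% of all tested genes. At a limma unadjusted p under 0.05, 3 members passed (Phf19, Rbbp4 and Eed), where 25.3% of all tested genes passed. With the further requirement of an absolute log2 fold change over 0.5, Phf19 was the 1 member left, where 16.7% of all genes passed. The log2 fold changes of the members ranged from -0.37 to 1.25 with a median of 0.10, beside a median of 0.0043 over all genes, and 8 were above and 2 below 0. For 9 members the 95% interval of the difference lay within a 2-fold change in either direction, and for 6 within a 1.5-fold change, so that larger differences in these transcripts were outside the intervals. The groups did not overlap for 4 members with higher values in BcorΔE9-10 (Eed, Mtf2, Phf19 and Rbbp4) and for 1 with lower values (Phf1), 5 in all, where 22.6% and 20.3% of all genes separated in these directions and 42.8% in either.

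**Figure D1:**
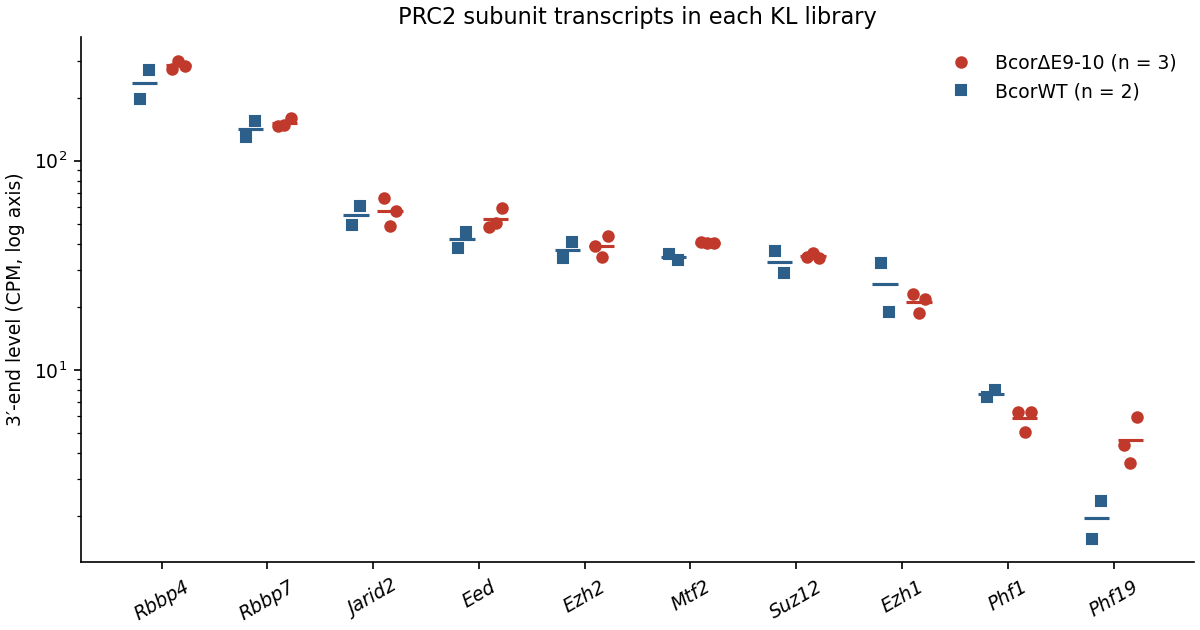
Level of each PRC2 subunit transcript in each library, in CPM of transcript ends on a log axis, ordered by mean level. Points are libraries (BcorΔE9-10, n = 3; BcorWT, n = 2) and bars are group means; Rbbp4 lies highest, between 197 and 300.2 CPM, and Phf19 lowest, between 1.56 and 5.96 CPM.

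The 3′ method gives about one read position per transcript whatever its length, so levels of different genes can be set side by side in CPM, apart from differences in how well each end was recovered. Over the 5 libraries, Rbbp4 had the highest mean level (266 CPM), followed by Rbbp7 (147.5 CPM). Both proteins also serve other chromatin complexes. The subunits particular to PRC2 lay lower and close together, with Jarid2 at 56.5, Eed at 48.4, Ezh2 at 38.4, Mtf2 at 38.2, Suz12 at 34.15 and Ezh1 at 23.0 CPM. Phf1 (6.60 CPM) and Phf19 (3.57 CPM) were the least abundant. The ranges over libraries were separate between Rbbp4 and Rbbp7, between Rbbp7 and Jarid2 and between Ezh1 and Phf1, and overlapped for each of the other neighbours in this order. Within libraries Eed was above Ezh2 in 5 of 5, Suz12 above Ezh1 in 5 of 5 and Phf1 above Phf19 in 5 of 5. Mtf2 was above Suz12 in 4 of 5, Jarid2 above Eed in 3 of 5 and Ezh2 above Mtf2 in 2 of 5. The plot of subunit levels by library shows these 3 tiers, with the histone-binding pair on top and the 2 scarcer Polycomb-like genes at the bottom.

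Of the catalytic subunits, Ezh2 (mm10, chromosome 6, 47530139 to 47595341, minus strand) is the main methyltransferase of dividing cells. It was measured at 39.2, 34.4 and 43.6 CPM in BcorΔE9-10 and at 34.1 and 40.7 CPM in BcorWT libraries. The groups overlapped almost completely, with means of 39.1 ± 4.58 CPM (SD, n = 3) and 37.4 ± 4.71 CPM (SD, n = 2). The log2 fold change was 0.07 (SE 0.163, 95% interval -0.27 to 0.42, limma adjusted p = 0.820). Ezh1 (chromosome 11, 101191115 to 101226463, minus strand), the paralogue with weaker methyltransferase activity that persists in resting cells, was at 22.9, 18.8 and 21.7 CPM in BcorΔE9-10 and at 32.4 and 19.0 CPM in BcorWT libraries. The BcorΔE9-10 values lay near the lower BcorWT library, while BcorWT library 1 stood above all others. Ezh1 averaged 21.1 ± 2.14 against 25.7 ± 9.48 CPM, a log2 difference of -0.23 (SE 0.218, 95% interval -0.69 to 0.23, limma adjusted p = 0.554), and without BcorWT library 1 it was 0.16 (limma adjusted p = 0.790).

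Eed (chromosome 7, 89954654 to 89980983, minus strand), the reader of trimethylated lysine 27, was at 48.2, 50.4 and 59.4 CPM in BcorΔE9-10 libraries and at 38.3 and 45.6 CPM in BcorWT libraries. All BcorΔE9-10 libraries were above both BcorWT libraries, by a narrow margin between 45.6 and 48.2 CPM. The group means were 52.7 ± 5.90 and 42.0 ± 5.16 CPM, with a log2 fold change of 0.33 (SE 0.156) that did not pass adjustment (limma unadjusted p = 0.0495, adjusted p = 0.197), and without BcorWT library 1 it was 0.20 (limma adjusted p = 0.622). Suz12 (chromosome 11, 79993106 to 80034123, plus strand), the scaffold that holds the complex together, was at 34.5, 36.2 and 34.4 CPM in BcorΔE9-10 and at 36.8 and 28.9 CPM in BcorWT libraries. The BcorΔE9-10 values lay between the BcorWT libraries, whose own gap was wider than any difference between the groups. Suz12 averaged 35.03 ± 1.04 against 32.8 ± 5.58 CPM, and its log2 difference was 0.10 (SE 0.164, 95% interval -0.25 to 0.44, limma adjusted p = 0.759). Genes on the other strand overlap both loci (E230029C05Rik with 36 counts at Eed and Gm26563 with 98 counts at Suz12, beside 1803 and 1262 counts for the members over all libraries).

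Rbbp4 (chromosome 4, 129307100 to 129335370, minus strand), a WD40 histone chaperone, was at 275, 300.2 and 284 CPM in BcorΔE9-10 libraries and at 197 and 272 CPM in BcorWT libraries. The groups did not overlap, but BcorWT library 2 lay just under the lowest BcorΔE9-10 library and far above BcorWT library 1. The means were 286 ± 12.98 and 234 ± 53.6 CPM and the log2 fold change 0.31 (SE 0.128, 95% interval 0.035 to 0.58), with a limma unadjusted p of 0.0293 and an adjusted p of 0.144. The call turned on scaling and on 1 control library, since Rbbp4 passed with scaling by total counts (log2 fold change 0.45, limma adjusted p = 0.0331) and without BcorWT library 2 (0.54, limma adjusted p = 0.0103), and stood at 0.064 without BcorWT library 1. Its level is also uncertain, as 86.7% of the 30-base words at its main annotated end occur in transcripts of 230 other genes. Its paralogue Rbbp7 (chromosome X, 162760402 to 162779092, plus strand) was at 146, 148 and 159.6 CPM in BcorΔE9-10 and at 129.9 and 154 CPM in BcorWT libraries. BcorWT library 2 lay inside the BcorΔE9-10 range and BcorWT library 1 below it. Rbbp7 averaged 151 ± 7.37 against 142 ± 16.9 CPM, and its log2 difference was 0.10 (SE 0.120, 95% interval -0.16 to 0.35, limma adjusted p = 0.655). Of the words at its main end, 53.5% are shared with Txlng, which lies on the other strand (269 counts beside 5461).

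Among the Polycomb-like subunits of PRC2.1, Mtf2 (chromosome 5, 108065674 to 108109004, plus strand), which binds unmethylated CpG-rich DNA, was at 40.7, 40.3 and 40.6 CPM in BcorΔE9-10 libraries and at 35.9 and 33.6 CPM in BcorWT libraries. The groups were separate and the BcorΔE9-10 libraries differed by very little, 40.5 ± 0.181 against 34.8 ± 1.62 CPM. The log2 fold change was nevertheless small and did not pass (0.22, SE 0.15, 95% interval -0.098 to 0.54, limma adjusted p = 0.381), and Tmed5 overlaps the locus on the other strand (605 counts beside 1418). Phf1 (chromosome 17, 26933127 to 26937890, plus strand), whose Tudor domain binds methylated lysine 36 of histone H3, was at 6.26, 5.06 and 6.31 CPM in BcorΔE9-10 and at 7.38 and 8.001 CPM in BcorWT libraries. It was the 1 member with every BcorΔE9-10 library below both BcorWT libraries. Its log2 fold change was -0.37 (SE 0.289, 95% interval -0.98 to 0.24, limma adjusted p = 0.449), from 5.88 ± 0.71 against 7.69 ± 0.436 CPM.

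Phf19 (chromosome 2, 34893757 to 34914026, minus strand), the third Polycomb-like protein and a reader of methylated lysine 36, was counted 37, 22 and 51 times in BcorΔE9-10 and 11 and 16 times in BcorWT. These counts were 4.37, 3.59 and 5.96 CPM against 1.56 and 2.37 CPM, so the groups were separate although the gene was the least abundant member. Phf19 averaged 4.64 ± 1.21 CPM (SD, n = 3) against 1.97 ± 0.572 CPM (SD, n = 2). The log2 fold change of 1.25 was the greatest of the 10 members, with the widest error (SE 0.496, 95% interval 0.20 to 2.29), and it did not pass adjustment (limma unadjusted p = 0.0228, adjusted p = 0.125). Its end shares no 30-base word with another gene and no other annotated gene overlaps it. In the 16 alternative settings its log2 fold change lay between 0.94 and 1.54 and its adjusted p between 0.0573 and 0.451.

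Jarid2 (chromosome 13, 44729474 to 44921643, plus strand), the PRC2.2 subunit that binds ubiquitylated H2A, was at 66.0, 48.8 and 57.4 CPM in BcorΔE9-10 libraries and at 49.4 and 60.8 CPM in BcorWT libraries. The values of the groups interleaved, with means of 57.4 ± 8.58 and 55.1 ± 8.01 CPM and a log2 difference of 0.07 (SE 0.158, 95% interval -0.27 to 0.40, limma adjusted p = 0.834). Aebp2, its partner in PRC2.2 and a gene outside the 10, was at 35.6, 36.2 and 41.5 CPM against 20.7 and 32.45 CPM. The groups of Aebp2 were separate, and its log2 fold change of 0.55 (SE 0.193, 95% interval 0.14 to 0.95) missed the threshold (limma adjusted p = 0.0848). It passed with scaling by total counts (0.69, limma adjusted p = 0.0334) and without BcorWT library 2 (0.87, limma adjusted p = 0.0164), the same settings in which Rbbp4 passed, and was 0.21 at its lowest over the 16 alternatives.

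**Figure D2:**
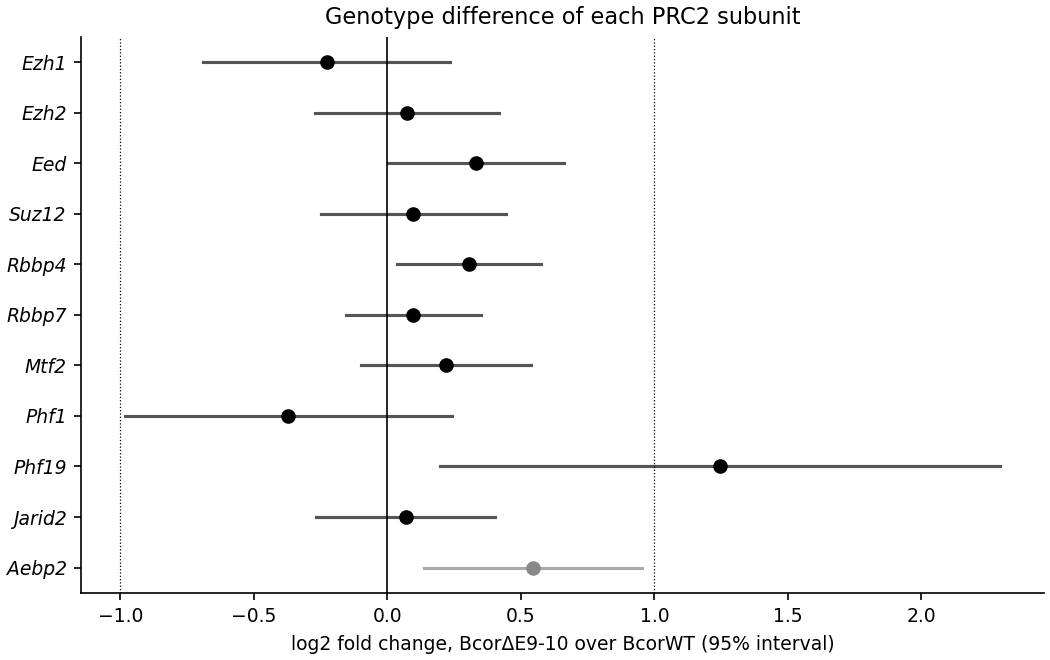
Genotype difference of each PRC2 subunit, as the log2 fold change of BcorΔE9-10 (n = 3) over BcorWT (n = 2) with its 95% interval from limma. Dotted lines mark a 2-fold change; the intervals of 9 members lie between them, Phf19 (1.25) reaches past the upper line, and Aebp2, not one of the 10, is drawn in grey.

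Because paralogous subunits compete for the same place in the complex, ratios of their counts were compared within libraries, where scaling plays no part. With 3 libraries against 2, the smallest p that the exact permutation test can give is 0.2, so no ratio could pass 0.05. The log2 ratio of Ezh1 to Ezh2 was -0.774, -0.873 and -1.0 in BcorΔE9-10 and -0.0738 and -1.1 in BcorWT libraries, so that Ezh2 was the more abundant in all 5 and the groups overlapped (difference -0.296, exact permutation p = 0.8, two-sided, adjusted over 4 ratios 0.8). The log2 ratio of Mtf2 to Phf19 was 3.2, 3.46 and 2.75 in BcorΔE9-10 and 4.46 and 3.79 in BcorWT libraries. Mtf2 therefore exceeded Phf19 in every library, by less in each BcorΔE9-10 library than in either BcorWT library (difference -0.986, exact permutation p = 0.2, adjusted 0.4; -0.648 without BcorWT library 1 and -1.32 without BcorWT library 2). The log2 ratio of Rbbp4 to Rbbp7 was 0.91, 1.02 and 0.831 in BcorΔE9-10 and 0.597 and 0.824 in BcorWT libraries. These groups met at 0.831 and 0.824 without overlap (difference 0.211, exact permutation p = 0.2, adjusted 0.4), and the difference was 0.097 without BcorWT library 1 and 0.324 without BcorWT library 2. The log2 ratio of Jarid2 to the sum of Phf1, Mtf2 and Phf19, a PRC2.2 subunit over those of PRC2.1, was 0.359, -0.0096 and 0.116 in BcorΔE9-10 and 0.134 and 0.46 in BcorWT libraries and overlapped (difference -0.142, exact permutation p = 0.4, adjusted 0.533).

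**Figure D3:**
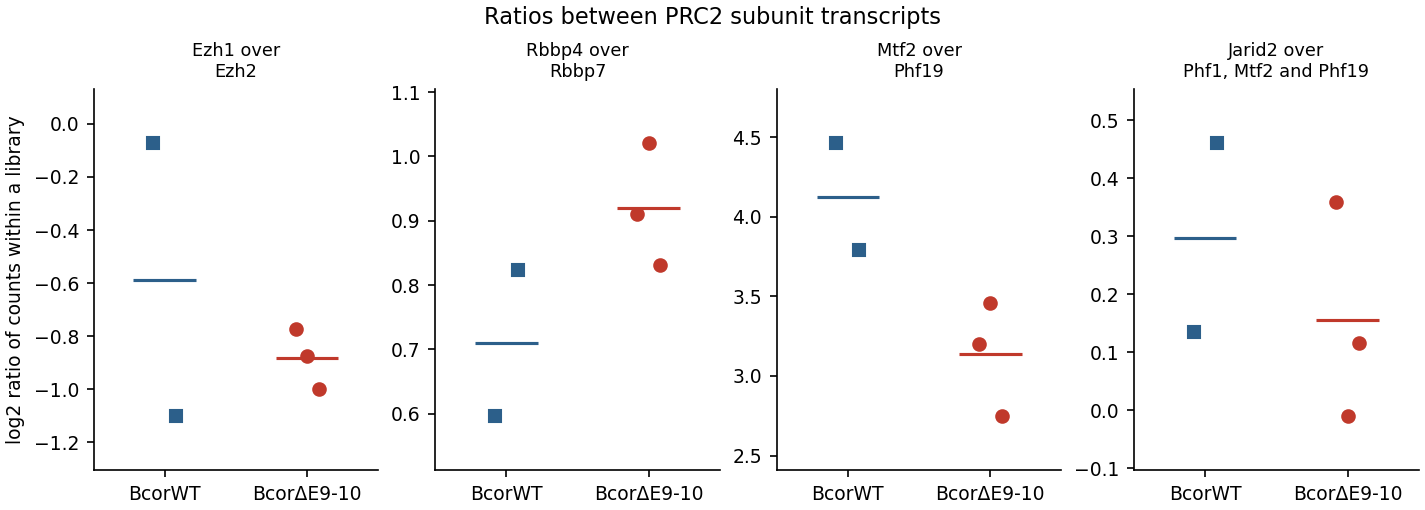
Log2 ratio of counts between paralogous or alternative PRC2 subunits in each library, with 1 panel per ratio and its own vertical axis. Points are libraries (BcorWT, n = 2; BcorΔE9-10, n = 3) and bars are group means; the groups are separate for Rbbp4 over Rbbp7 and for Mtf2 over Phf19 and overlap for the other ratios.

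The BcorWT libraries differed from each other by about as much as the genotypes did. BcorWT library 2 was above BcorWT library 1 for 7 members and below it for 3 (Ezh1, Suz12 and Mtf2), and the median absolute log2 difference between these controls was 0.278, against a median absolute log2 fold change between genotypes of 0.223. The members were not scarce transcripts as a group, with a median average level of 5.26 on the log2 CPM scale against 3.93 for all tested genes. Without a BcorΔE9-10 library, the log2 fold change changed sign for Jarid2 (library 1 left out) and Ezh2 (library 3 left out), without BcorWT library 1 for Ezh1, Ezh2, Rbbp7 and Jarid2, and without BcorWT library 2 for Suz12. Phf1, Phf19 and Rbbp4 kept their sign in all 16 alternatives.

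A correction for the base composition of transcript ends moved the values of several members. The last 300 bases of the members' transcripts had a median GC content of 37.0%, against 43.0% for all tested genes, with Suz12 at 25.7%, Mtf2 at 30%, Ezh2 and Eed at 31.7% each and Rbbp7 at 34.7%. When a trend on GC content was removed from each library, the log2 fold changes of these 5 members became lower, to -0.30 for Suz12, -0.07 for Mtf2, -0.17 for Ezh2, 0.09 for Eed and -0.07 for Rbbp7. The median over the members then was -0.069. Phf19 (47.0% GC) was at 1.30, Rbbp4 (39.3%) at 0.26, Jarid2 (44.0%) at 0.09, Ezh1 (52.0%) at -0.12 and Phf1 (48.3%) at -0.30. No member was called with the correction.

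**Figure D4:**
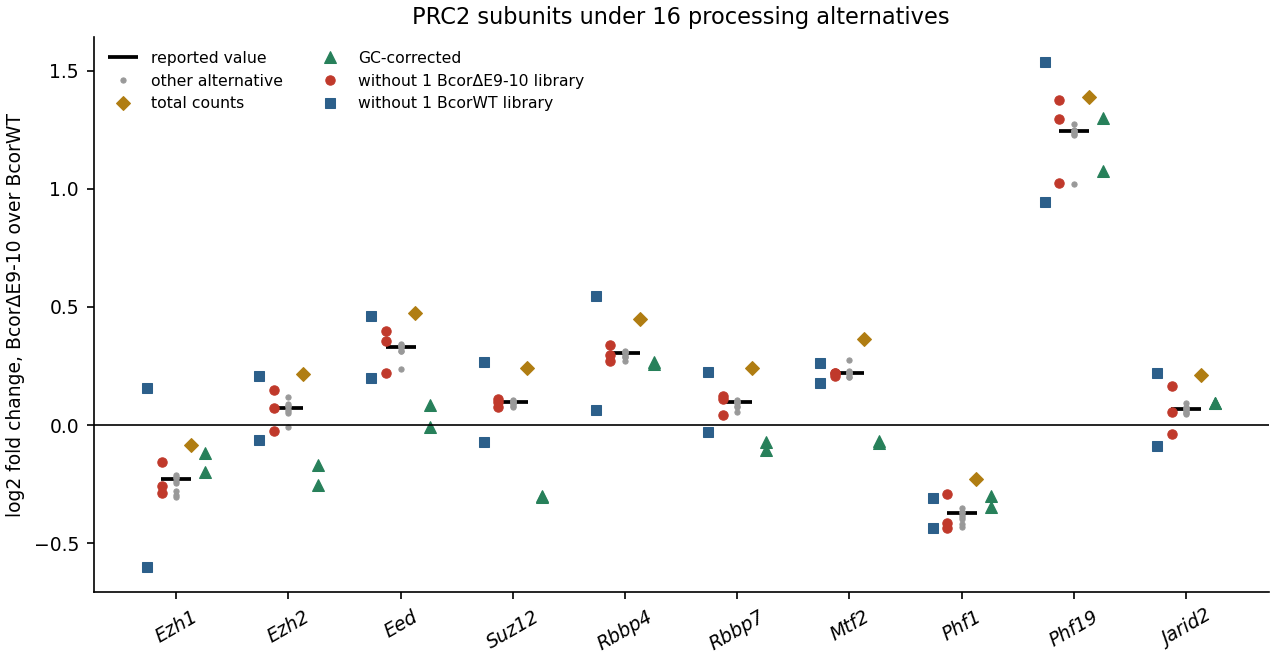
Log2 fold change of each PRC2 subunit (BcorΔE9-10 over BcorWT, vertical axis) as reported (bar) and under 16 processing alternatives (symbols, by kind). Phf19 stays above 0.9 in all of them and Phf1 below 0, while Suz12 lies at -0.30 with the GC correction and Ezh1 reaches from -0.60 to 0.16 when a BcorWT library is left out.

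The genes around PRC2 were counted in lists, each read against the 6.02% of all tested genes called higher and the 4.09% called lower. Among other PRC2 partners and inhibitors (Aebp2, Epop, Lcor and Lcorl tested, with Ezhip under the expression filter), 0 of 4 passed. None of 5 enzymes that remove the lysine 27 mark or acetylate the same residue passed, with the demethylases Kdm6a at 0.43 on the log2 scale (limma adjusted p = 0.477) and Kdm6b at 0.014 (limma adjusted p = 0.971). Of the complexes that also hold Rbbp4 and Rbbp7, the NuRD deacetylase list had 2 of 11 genes called, both higher in BcorΔE9-10, and the Sin3 list 1 of 11, also higher. Mta1, a NuRD scaffold, rose from 34.5 and 48.6 CPM in BcorWT to 70.7, 86.2 and 74.3 CPM in BcorΔE9-10 libraries (log2 fold change 0.90, limma adjusted p = 0.00245). Mbd2, the methyl-CpG binding subunit, rose by 0.80 on the log2 scale (limma adjusted p = 0.00386), a call lost without BcorWT library 1 (0.61, limma adjusted p = 0.0567). Sap30 of the Sin3 complex had 97, 89 and 122 counts against 33 and 19 and rose by 1.84 on the log2 scale (limma adjusted p = 0.00379). The histone chaperone list (CAF-1, NURF and Hat1, which share Rbbp4 or Rbbp7) had 0 of 4 tested genes called.

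Of the E2F and pocket protein genes, whose letters were found in the Ezh2, Suz12 and Phf19 windows, 2 of 12 tested were called, both higher, with a list median of 0.13. The count and the sign of the median turned on the libraries and the processing, with 5 called and a median of 0.30 without BcorWT library 2, 1 called and a median of -0.14 without BcorWT library 1, 1 called without any 1 BcorΔE9-10 library, 4 called with total counts, and 1 called and a median of -0.028 with the GC correction. E2f8, an atypical E2F that acts mainly as a repressor, was at 91.0, 123.5 and 121.5 CPM in BcorΔE9-10 libraries and at 22.9 and 45.9 CPM in BcorWT libraries (log2 fold change 1.77, SE 0.225, limma adjusted p = 0.00014). Rbl1, the pocket protein p107, rose by 0.66 (limma adjusted p = 0.0241), a call lost with the GC correction (0.24, limma adjusted p = 0.427), without any 1 BcorΔE9-10 library and without BcorWT library 1 (limma adjusted p between 0.0515 and 0.177). The classical activators E2f1 and E2f2 stood at -0.41 (limma adjusted p = 0.0632) and -0.43 (limma adjusted p = 0.0645).

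**Figure D5:**
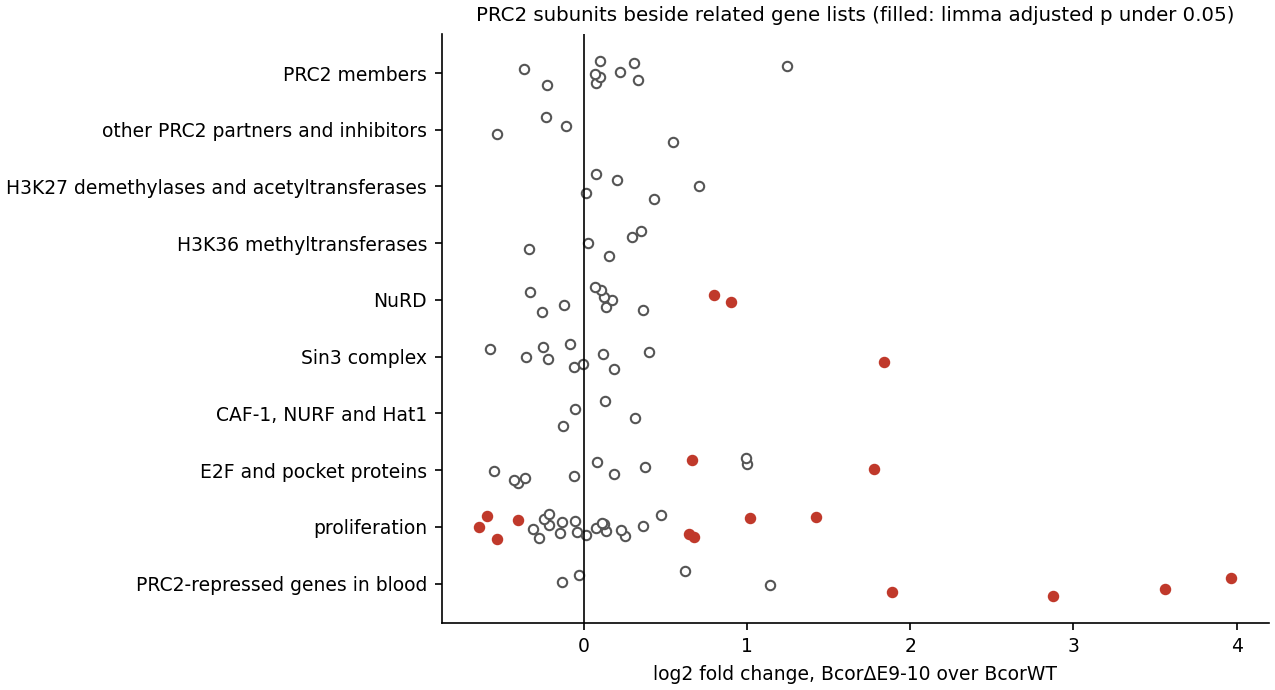
Log2 fold change (BcorΔE9-10 over BcorWT, horizontal axis) of the PRC2 members and of each tested gene of 9 related lists. Filled points passed a limma adjusted p of 0.05; no PRC2 member is filled, and the fitted value of the rightmost point (Hmga2) rests on a BcorWT group with 1 count in all.

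Finally, genes that PRC2 is known to keep silent in blood cells were listed beside the complex. Only 8 of 49 such genes (the Hox clusters, Cdkn2a, Hmga2, Meis1 and others) passed the expression filter, and since a gene silent in BcorWT cells could pass through BcorΔE9-10 libraries alone, their count is no measure of the list. Of these 8, 4 were called higher and 4 were not called, namely Hoxb3 at 1.14 on the log2 scale (limma adjusted p = 0.272), Meis1 at 0.62 (limma adjusted p = 0.386), Igf2bp2 at -0.032 (limma adjusted p = 0.973) and Hoxb4 at -0.13 (limma adjusted p = 0.844). Hoxa9, a homeobox factor of stem cells and early progenitors, was at 28.2, 20.9 and 32.8 CPM in BcorΔE9-10 libraries and at 2.27 and 2.22 CPM in BcorWT libraries, a log2 difference of 3.56 (SE 0.469, limma adjusted p = 0.000192), with Ezh2, Eed and Suz12 at the values above in the same libraries. Hoxa7 rose by 1.89 (limma adjusted p = 0.00658), a call lost without BcorWT library 1 (limma adjusted p = 0.0554), and 1 of its annotated ends is shared in full with the antisense gene Hoxaas3. Hoxa5, with 32, 24 and 69 counts against 2 and 9, rose by 2.87 (limma adjusted p = 0.0399), a call lost without BcorΔE9-10 library 3 or either BcorWT library (limma adjusted p between 0.0793 and 0.268) and with sample weights, the replicate block or the GC correction and block together (limma adjusted p between 0.0554 and 0.0677). Hmga2, a chromatin protein of fetal stem cells, had 16, 16 and 13 counts against 0 and 1 (limma adjusted p = 0.0240). Pooled by group, these counts gave a ratio of 26.8 with a 95% counting interval of 4.57 to 1080. That interval holds no spread between animals. The log2 fold change of Hmga2 was 3.97, and 3.13 and 4.79 without BcorWT library 1 or 2, where the call was lost. The gene 1700006J14Rik overlaps Hmga2 on the other strand (79 counts beside 46). Of the words at the Hmga2 end, 20.3% are shared with other genes.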

How the data were processed

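Gene expression was measured by Quant-seq in 5 KL libraries (3 BcorΔE9-10, 2 BcorWT). The authors trimmed reads with cutadapt, used HISAT2 for alignment to mm10 and Subread for counting by gene (version 1.5.0-p3, per the submitters' processing notes); the deposited values are raw counts. Options for multimapped reads and strand are not given in the sources used here. Genes were kept with edgeR's filterByExpr (at least 10 counts and 15 in total; version 4.0.16), scaled by TMM and tested with limma-voom (version 3.58.1; R version 4.3.3), the package that the study names, with Benjamini-Hochberg adjustment over 11766 genes, two-sided. Alternatives were DESeq2 (version 1.42.0), edgeR's quasi-likelihood test, other scalings, filters, sample weights, reduced depth, a GC correction (lowess on the last 300 bases, span 0.3), a replicate block and fits without each library in turn. Libraries within a group were not copies of each other (chi-square from 6.01 to 11.6 per gene). Ratios used counts plus 0.5. The members and lists were chosen with earlier results of these data known. Genes named were the members, Bcor, up to 4 called genes per list by size of change, and Aebp2, Kdm6a, Kdm6b and Hoxa9; Kit, E2f1, E2f2, Nsd2, Ash1l, Mki67, Plk1, Birc5, Mcm4, Hoxb3, Hoxb4, Meis1 and Igf2bp2 were added after their values were seen. The script was tested on simulated counts.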

Additional observations from a re-analysis of the deposited data

How the results depend on the processing

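Every alternative named was run, and no cause of a change was tested. Of 160 values (10 members in 16 alternatives), 141 kept direction and side of the threshold, 17 changed sign and 2 gained a call. Members called stayed at 0 except for 1 (Rbbp4) with total counts and a range of 0 to 1 over fits without 1 library; total counts also moved the median of all genes to 0.149 and the share of calls that were higher from 59.5% to 86.0%. The members' median was 0.24 with total counts (0.093 above that of all genes, as in the reported fit), -0.069 with the GC correction, -0.090 with the GC correction and replicate block, and 0.077 to 0.214 without 1 library. Genes called ranged from 558 (without BcorWT library 1) to 1200 without 1 library, with 774 and 723 without BcorΔE9-10 library 2 or 3, and listed genes outside PRC2 from 10 (without BcorWT library 1) to 16 (17 reported). Replicate numbers are shared by 2 pairs, whose deviations correlated at 0.077 and 0.082. Pairs of unlike number were not compared, so whether libraries of the same number share a batch was not tested. The replicate block gave 1454 called genes, 0 members and a members' median of 0.085. Signs changed for Ezh2 (block -0.0093, GC -0.17, GC and block -0.25, without 1 library -0.061 to 0.21), Suz12 (GC -0.30, GC and block -0.30, -0.069 to 0.27), Mtf2 (GC -0.068, GC and block -0.074), Rbbp7 (GC -0.069, GC and block -0.11, -0.031 to 0.22), Eed (GC and block -0.0058), Jarid2 (without 1 library -0.087 to 0.22) and Ezh1 (-0.60 to 0.16). They also changed for Kdm6a (GC and block -0.13, without 1 library -0.087 to 0.96) and Kdm6b (DESeq2 -0.012, DESeq2 size factors -0.0022, block -0.088, without 1 library -0.16 to 0.19). The difference in the Ezh1 to Ezh2 log2 ratio was 0.218 without BcorWT library 1 and -0.809 without library 2, and that of Jarid2 to the Polycomb-like genes 0.0207 without BcorWT library 2. With 1 BcorWT library left, that library was assumed to vary like the other group. Low counts limit Phf19, Hoxa5 and Hmga2.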

Other observations

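None of 5 methyltransferases of lysine 36 of histone H3, the mark read by Phf1, Mtf2 and Phf19, passed the limma threshold, and their log2 fold changes ranged from -0.34 (Nsd2) to 0.35 (Ash1l). Among 26 proliferation genes, with which Ezh2 is commonly expressed, 4 were called higher and 4 lower in BcorΔE9-10 libraries (6.02% and 4.09% of all tested genes were), with a median of -0.017. This count and median turned on the controls, with 5 called (the fewest in any of the 16 alternatives) and a median of 0.18 without BcorWT library 2 and a median of -0.13 without BcorWT library 1. Pcna, the replication clamp, was at 196, 246 and 218 CPM in BcorΔE9-10 and at 124 and 152 CPM in BcorWT libraries (log2 fold change 0.67, limma adjusted p = 0.00359). Bub1 and Aurkb, kinases of the mitotic checkpoint and the chromosomal passenger complex, rose by 1.42 (limma adjusted p = 0.0121) and 1.01 (limma adjusted p = 0.00438), calls lost without BcorWT library 1 (limma adjusted p = 0.192 and 0.0868). Ccne1, cyclin E1, was at 18.2, 19.3 and 17.3 CPM against 25.3 and 32.0 CPM (log2 fold change -0.64, limma adjusted p = 0.0350), a call lost with total counts (-0.50, limma adjusted p = 0.101), no filter, reduced depth, the replicate block, the GC correction with or without the block, without any 1 BcorΔE9-10 library and without BcorWT library 2 (limma adjusted p between 0.0521 and 0.198 in all of these). Mki67 (-0.54, limma adjusted p = 0.00700), Plk1 (-0.59, limma adjusted p = 0.00680) and Birc5 (-0.40, limma adjusted p = 0.0262) were also called lower and Mcm4 (0.64, limma adjusted p = 0.00681) higher. Mki67 passed in all 16 alternatives. The call of Plk1 was lost without BcorWT library 2 (-0.38, limma adjusted p = 0.0739), that of Birc5 with total counts (-0.26, limma adjusted p = 0.155), without BcorWT library 2 (-0.25, limma adjusted p = 0.218) and without BcorΔE9-10 library 1 or 2 (limma adjusted p = 0.0817 and 0.0584), and that of Mcm4 without BcorWT library 1 (0.39, limma adjusted p = 0.122) and with the GC correction, alone or with the block (0.19 and 0.16, limma adjusted p = 0.423 and 0.541).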
